A study of Mus musculus with 15 samples.

Results

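The mature 5p arms of the miRNAs that lie inside the mouse Hox clusters are described here: miR-10a-5p, miR-10b-5p, miR-196a-5p and miR-196b-5p. A read of 18 to 26 bases was counted for an arm when its first 18 bases matched that arm exactly, and all 4 members were found, among 872 miRNA arms that had reads. They took 52000 of 4388288 miRNA reads over 15 small RNA libraries. The libraries fall into 5 groups of 3: MM3MG, a normal mammary epithelial line of BALB/c mice, MM3MG-Her2, which is MM3MG transduced with retroviral particles carrying Neu (the rodent form of Her2), TUBO cells, a breast cancer line from primary tumours of Balb-NeuT mice, TUBO exosomes, isolated from TUBO culture supernatant, and TUBO supernatant, which is what was left after that isolation. All cultures grew in DMEM with fetal calf serum and received no other treatment. The sources used here do not give whether MM3MG-Her2 or TUBO is 1 clone, or whether replicates are separate cultures. Each p-value therefore measures the spread between libraries, which may be technical. No MM3MG library with an empty vector was analysed here. The study asked which miRNAs in Her2-expressing lines, and in the particles they secrete, may regulate the progesterone receptor.

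A miRNA is cut from a hairpin precursor, and the bases near its 5′ end, the seed, pair with messenger RNAs that it represses. The miR-10 genes lie in the Hox clusters of many animals and the miR-196 genes in those of vertebrates, between genes that set position along the body axis, and several Hox messenger RNAs are known targets of both families. miR-196 is known for cutting the Hoxb8 messenger RNA, and miR-10b for its link to invasion and metastasis of breast cancer cells, where the transcription factor Twist induces it.

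The 4 mature sequences follow from 5′ to 3′, from RefSeq (GRCm38.p6), with the seed (bases 2 to 8) in capitals. They are shown because each family has 1 seed, and a single base at position 12, counted from the 5′ end, tells its members apart.
miR-10a-5p: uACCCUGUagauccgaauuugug
miR-10b-5p: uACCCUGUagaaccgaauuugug
miR-196a-5p: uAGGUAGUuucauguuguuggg
miR-196b-5p: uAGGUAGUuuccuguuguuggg
From miR-10a-5p to miR-10b-5p the change is U12A, which leaves 95.7% of 23 bases identical, and from miR-196a-5p to miR-196b-5p it is A12C, with 95.5% of 22 bases identical. Position 12 lies within the 18 bases that had to match, so every counted read shows which member it came from, apart from sequencing errors.

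On GRCm38, the Mir10a hairpin lies in the Hoxb cluster at chr11:96317165-96317274 on the plus strand, 993 bases before Hoxb4 and 11044 bases after Hoxb5, and overlaps no annotated gene. The Mir10b hairpin lies in the Hoxd cluster at chr2:74726070-74726137 on the plus strand, in introns of Hoxd3 and Hoxd4 gene models. miR-196a-5p has 2 hairpins with the same mature sequence. Mir196a-1 is at chr11:96265164-96265265 on the plus strand between Hoxb13 and Hoxb9, in no annotated gene, and Mir196a-2 at chr15:102973350-102973434 on the plus strand between Hoxc10 and Hoxc9, in an intron of a Hoxc5 gene model. Mir196b lies in the Hoxa cluster at chr6:52230081-52230165 on the minus strand, overlaps an exon of a Hoxa9 gene model and ends 1032 bases from Hoxa10.

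Total reads ran from 196152 to 710902 per library and miRNA reads from 59050 to 538818, so 3 reads over a whole group are worth 2.08 CPM (counts scaled to a library of 1000000 miRNA reads) in TUBO cells and 14.2 CPM in the supernatant. miRNAs took 72.5% to 79.2% of all MM3MG reads and 50.1% to 54.9% for MM3MG-Her2. The TUBO cell libraries were at 75.8% to 76.8%, their exosomes at 57.5% to 60.8% and the supernatant at 28.2% to 33.2%. Inserts of 20 bases or fewer took 9.82% to 10.4% of reads in TUBO cells, 14.2% to 18.3% in exosomes and 24.5% to 33.8% in supernatant. The labelled epithelial origin was checked against 6 epithelial miRNAs (the miR-200 family and miR-205-5p). Their summed level was 15.8 to 26.4 CPM in MM3MG and 11.5 to 39.7 CPM in MM3MG-Her2, against 24971 to 26194 CPM in TUBO cells, so these defining miRNAs were near 0 in both lines labelled epithelial and normal in origin. Of 4 stromal miRNAs, miR-214-3p had 2138 ± 139 CPM (SD, n = 3) in MM3MG and 0 reads in TUBO cells, which allows up to 2.08 CPM.

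The Hox cluster miRNAs were abundant in MM3MG and scarce in TUBO cells. Together the 4 arms made up 30071 ± 5761 CPM (SD, n = 3) in MM3MG and 24306 ± 982 CPM in its transduced derivative. TUBO cells had 169 ± 10.2 CPM, the exosomes 948 ± 375 CPM and the supernatant 403 ± 125 CPM. miR-10a-5p was the most abundant of them in both MM3MG lines, at rank 14 of 617 arms with reads in MM3MG and rank 11 of 529 in MM3MG-Her2. In TUBO cells the most abundant was miR-196b-5p, at rank 144 of 553, and in exosomes miR-10b-5p, at rank 80 of 540. In the supernatant miR-10a-5p led again, at rank 104 of 394. Thus the leading member differed between the MM3MG lines, TUBO cells and exosomes.

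**Figure D1:**
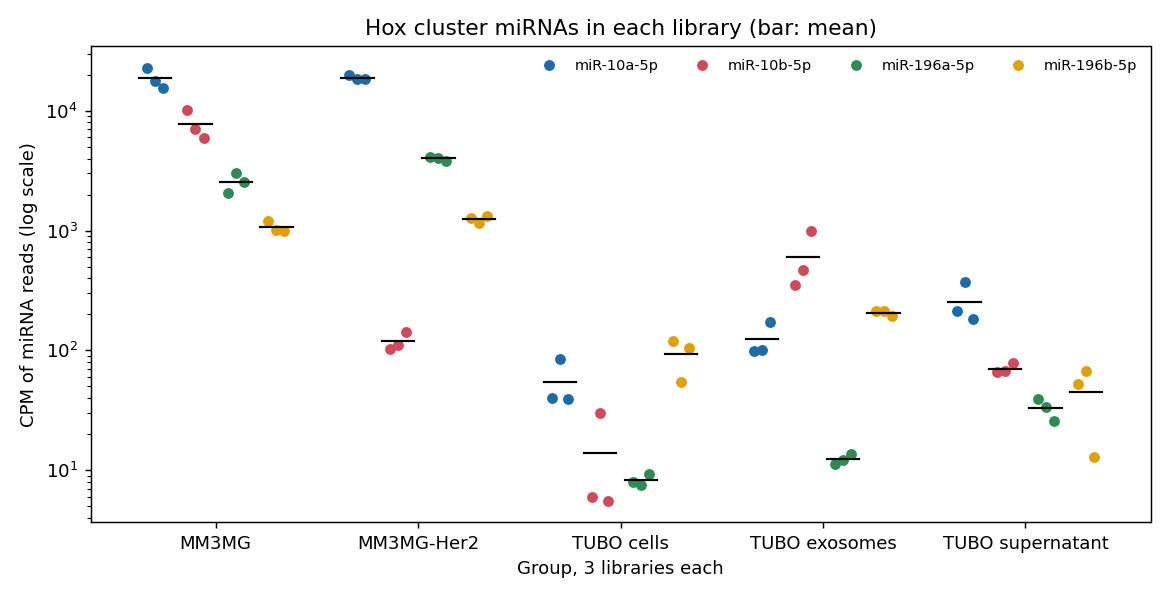
Abundance of the 4 Hox cluster miRNAs in each of 15 libraries, in CPM of miRNA reads on a log axis; points are replicates 1, 2 and 3 from left to right and bars are means of 3. miR-10b-5p stands with the other members in MM3MG, at 119 CPM in MM3MG-Her2, and above them in TUBO exosomes, at 605 CPM.

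miR-10b-5p separated the MM3MG lines from each other. In MM3MG it had 10140, 7032 and 5950 CPM in replicates 1, 2 and 3, and in MM3MG-Her2 103, 111 and 142 CPM. The groups lie far apart, with the lowest MM3MG library above every MM3MG-Her2 library. The mean was 64.9-fold lower in MM3MG-Her2, and the log2 difference was −6.19 ± 0.37 (SE, n = 3 per group, edgeR adjusted p = 6.01e-07), the rank 5 change by size among 276 arms tested. In the same comparison 3 of 4 stromal miRNAs passed as lower, where 33.3% of all arms did, among them miR-199a-5p (−1.65 ± 0.21, edgeR adjusted p = 1.16e-06), and inserts of 20 bases or fewer took 14.8% to 18% of MM3MG-Her2 reads against 9.38% to 11.5% in MM3MG. Their part in the miR-10b-5p difference was not tested.

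Its near-twin miR-10a-5p did not pass the test in that comparison. It had 22976, 17588 and 15653 CPM in MM3MG and 19910, 18319 and 18582 CPM in MM3MG-Her2, so the groups overlap. The log2 difference was −0.13 ± 0.19 (edgeR adjusted p = 0.571). miR-196a-5p had 2072, 3048 and 2538 CPM in MM3MG and 4152, 4062 and 3789 CPM in MM3MG-Her2, with no overlap and a log2 difference of 0.50 ± 0.15 (edgeR adjusted p = 0.00286). miR-196b-5p had 1213, 1013 and 991 CPM against 1270, 1156 and 1322 CPM, which overlap (log2 difference 0.07 ± 0.17, edgeR adjusted p = 0.737). Thus 2 of 4 members passed, where 60.9% of all arms tested did: 1 as higher, beside 27.5% of arms, and 1 as lower, beside 33.3%. In the same comparison 2 of 4 had groups that do not overlap, against 66.3% of all arms.

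The miR-196a-5p call held under the other scalings run but not under several other choices. With all reads in place of miRNA reads as the denominator its means were 1969 CPM in MM3MG and 2090 CPM in MM3MG-Her2. Without the filter on low counts its log2 difference was 0.0758 (edgeR adjusted p = 0.812), and with all 15 libraries in 1 fit 0.11 (edgeR adjusted p = 0.674). The call was lost without MM3MG replicate 1, 2 or 3 (−0.0765, 0.24 and 0.0861; edgeR adjusted p = 0.568, 0.14 and 0.659) and without MM3MG-Her2 replicate 2 or 3 (0.0821 and 0.13; edgeR adjusted p = 0.717 and 0.526). It held without MM3MG-Her2 replicate 1 (0.46, edgeR adjusted p = 0.0186). miR-10a-5p passed as lower in MM3MG-Her2, at −0.40, −0.57 and −0.64, in the fits without MM3MG replicate 1, 2 or 3 (edgeR adjusted p = 6.46e-05, 0.0336 and 0.00145). In those fits the median log2 difference of all arms tested was −0.53, −0.45 and −0.44, beside −0.0435 in the main fit. The part of that shift in the changed calls was not tested. The fall of miR-10b-5p ranged from −6.73 to −6.11 when each library was left out in turn.

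A ratio within a library does not depend on scaling. miR-10a-5p made up 69.4%, 71.4% and 72.5% of the reads of both miR-10 members in MM3MG and 99.5%, 99.4% and 99.2% in MM3MG-Her2. The shares do not overlap and their means differ by 28.3 percentage points (exact two-sided permutation p = 0.1, the smallest that 3 against 3 libraries allow, adjusted p = 0.133 over 12 share comparisons). The miR-196a-5p share of both miR-196 members was 70.0% ± 6.21 (SD, n = 3) in MM3MG and 76.2% ± 1.88 in MM3MG-Her2, with overlap (exact two-sided permutation p = 0.2, adjusted p = 0.218).

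The few miR-10b-5p reads left in MM3MG-Her2 were set beside sequencing errors, since a U12A error would turn a miR-10a-5p read into a miR-10b-5p read. Among 12684 exact miR-10a-5p reads of that line, the other 53 single substitutions within the first 18 bases had 0 to 52 reads each, with a median of 4. The U12A sequence, that is miR-10b-5p itself, had 78 reads. Over all 15 libraries, U12C had 46 reads and U12G 11 reads beside 34392 exact reads of miR-10a-5p. The 78 reads are above every other single substitution. How many of them are errors of miR-10a-5p reads was not tested.

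**Figure D2:**
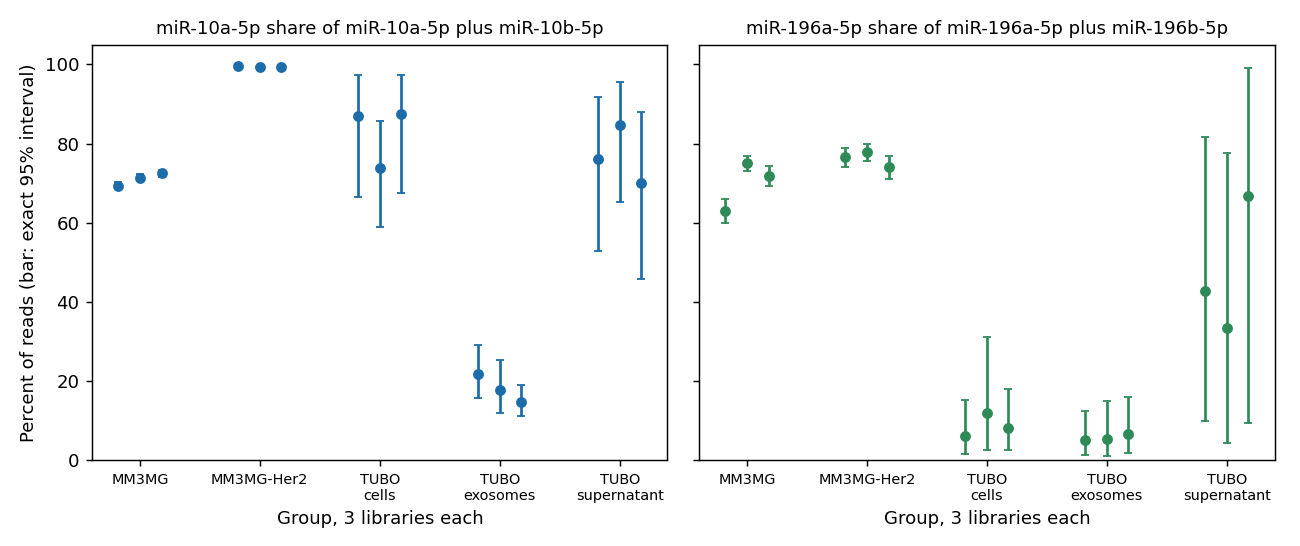
Share of miR-10a-5p in the reads of both miR-10 members (left) and of miR-196a-5p in the reads of both miR-196 members (right), in percent, for each library with its exact 95% binomial interval. The miR-10a-5p share lies between 69.4% and 72.5% in MM3MG, at 99.2% or more in MM3MG-Her2 and at 21.9% or less in TUBO exosomes.

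All 4 members were lower in TUBO cells than in MM3MG and MM3MG-Her2. miR-10a-5p had 39.8, 84.7 and 39.0 CPM in TUBO cells and miR-10b-5p 5.98, 29.9 and 5.57 CPM. miR-196a-5p had 7.97, 7.47 and 9.28 CPM, and miR-196b-5p 120, 54.8 and 104 CPM. Every TUBO cell library lies below every MM3MG and MM3MG-Her2 library for each member. The reads behind these levels are few: 75 for miR-10a-5p, 18 for miR-10b-5p, 12 for miR-196a-5p and 138 for miR-196b-5p over the 3 TUBO cell libraries.

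Against MM3MG, mean CPM was 344-fold lower for miR-10a-5p, 558-fold for miR-10b-5p, 310-fold for miR-196a-5p and 11.6-fold for miR-196b-5p. The log2 differences were −8.71 ± 0.28, −9.46 ± 0.45, −8.46 ± 0.25 and −3.76 ± 0.20 in that order (SE, n = 3 per group, edgeR adjusted p = 7.46e-14, 5.36e-08, 2.03e-32 and 4.13e-22). Without TUBO cells replicate 2, which held most of the 18 miR-10b-5p reads, the miR-10b-5p log2 difference was −10.62. All 4 members passed as lower, where 47.1% of all 276 arms did, and all 4 had groups that do not overlap, as did 84.1% of all arms. Their median log2 difference was −8.58, beside −0.33 over all arms tested.

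Against MM3MG-Her2, the order changed, since miR-10b-5p was already low there. miR-196a-5p was 486-fold lower in TUBO cells (−8.95 ± 0.25, edgeR adjusted p = 2.65e-33) and miR-10a-5p 347-fold (−8.58 ± 0.28, edgeR adjusted p = 1.18e-13). miR-196b-5p was 13.5-fold lower (−3.83 ± 0.20, edgeR adjusted p = 5.43e-22), and miR-10b-5p 8.60-fold (−3.27 ± 0.58, edgeR adjusted p = 0.000711). Without TUBO cells replicate 2 the miR-10b-5p log2 difference was −4.58, larger than the −3.81 of miR-196b-5p in that fit, so their order changed, and that of miR-10a-5p was −9.23. Again all 4 passed as lower, beside 47.8% of all arms, and all 4 had groups without overlap, beside 80.1%. The comparisons of TUBO cells with each MM3MG line share the TUBO libraries, and TUBO is a different line. Against MM3MG, tumour origin, Neu and line cannot be told apart. Against MM3MG-Her2, which also carries Neu, tumour origin and line cannot be told apart, and levels of Neu were not compared. In bulk RNA, fewer cells that hold a miRNA and less of it per cell cannot be told apart either.

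miR-196b-5p thus kept a larger part of its level than its near-twin. The miR-196a-5p share of both miR-196 members was 6.25%, 12% and 8.20% in TUBO cells, against 63.1%, 75.1% and 71.9% in MM3MG (exact two-sided permutation p = 0.1, the smallest possible, adjusted p = 0.133). The miR-10a-5p share of both miR-10 members was 87.0%, 73.9% and 87.5% in TUBO cells, above all 3 MM3MG libraries and below all 3 MM3MG-Her2 libraries, with the same exact permutation p of 0.1 (smallest possible) in both comparisons.

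Markers of cell type moved with these falls. All 4 stromal miRNAs listed (miR-143-3p, miR-145a-5p, miR-199a-5p and miR-214-3p) passed as lower in TUBO cells than in MM3MG, beside 47.1% of all arms. All 6 epithelial ones passed as higher, beside 34.1% of all arms. Against MM3MG-Her2, 3 of the 4 stromal miRNAs passed as lower, beside 47.8% of all arms, and miR-145a-5p did not (edgeR adjusted p = 0.0537). The stromal sum ran from 98111 to 133959 CPM in MM3MG and from 47580 to 47711 CPM in TUBO cells, with MM3MG-Her2 between them at 63518 to 67835 CPM. TUBO cells replicate 2, the library highest in both miR-10 members, held all 3 miR-199a-5p reads of that group. The other stromal miRNAs listed were not highest there. In replicates 1, 2 and 3 miR-143-3p had 47516, 47413 and 47558 CPM, miR-145a-5p 195, 159 and 148 CPM, and miR-214-3p 0 reads. The part of cell type in the members' falls was not tested.

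**Figure D3:**
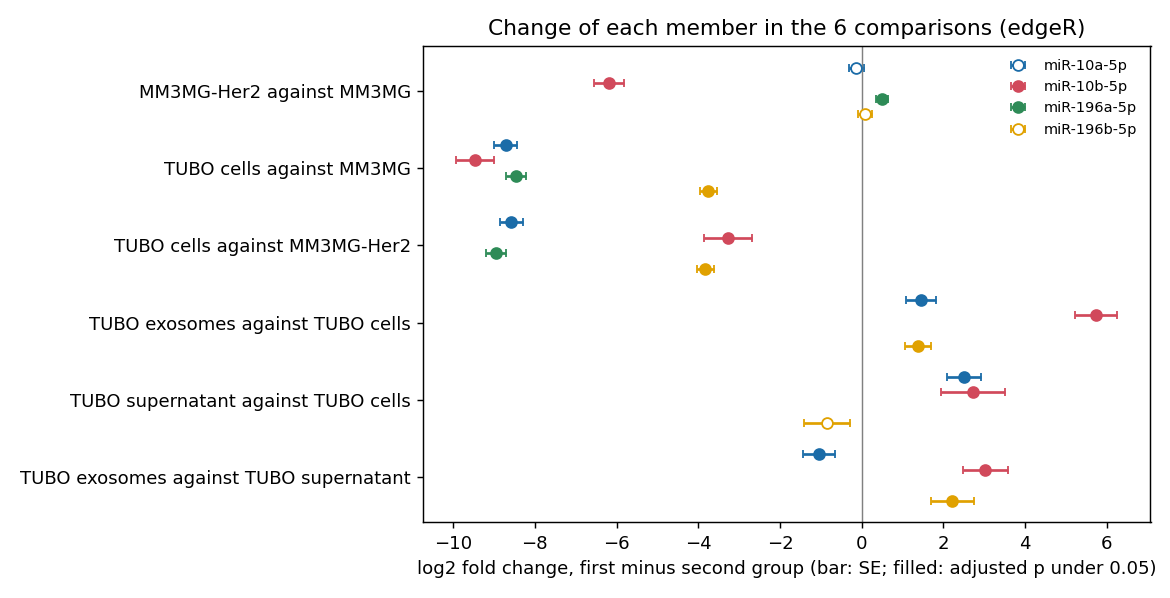
Log2 fold change of each member in 6 comparisons, first group minus second, from edgeR with its SE as a bar; filled points have an adjusted p under 0.05. miR-196a-5p has no point in the 3 comparisons of TUBO-derived libraries because it did not pass the filter on low counts there.

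TUBO exosomes had more miR-10b-5p, relative to other miRNAs, than the cells that released them. The cells had 5.98, 29.9 and 5.57 CPM and the exosomes 352, 467 and 997 CPM in replicates 1, 2 and 3, with 18 reads against 535 reads. Every exosome library is above every cell library, and exosome replicate 3 is above replicates 1 and 2 added together. The mean was 43.8-fold higher in exosomes, and the log2 difference was 5.74 ± 0.51 (SE, n = 3 per group, edgeR adjusted p = 1.28e-07), rank 15 by size among 238 arms tested. Leaving out each library in turn gave 5.22 to 6.58, the highest without TUBO cells replicate 2.

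The other members rose less. miR-10a-5p had 98.7, 102 and 172 CPM in exosomes, 2.28-fold the cell mean (log2 difference 1.45 ± 0.37, edgeR adjusted p = 0.00441). miR-196b-5p had 211, 215 and 193 CPM, 2.23-fold the cell mean (1.38 ± 0.33, edgeR adjusted p = 0.00256). miR-196a-5p had 11.3, 12.2 and 13.5 CPM from 11 reads, did not pass the filter on low counts and was not tested. So 3 of 3 members tested passed as higher, beside 23.5% of 238 arms, and all 3 had groups without overlap, beside 64.3%. The miR-10a-5p rise did not pass without TUBO cells replicate 1 or 3 (edgeR adjusted p = 0.0596 and 0.0666), nor that of miR-196b-5p without TUBO cells replicate 2 (edgeR adjusted p = 0.0614).

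The miR-10 pair changed places between cells and exosomes. miR-10a-5p made up 21.9%, 17.9% and 14.7% of the reads of both miR-10 members in exosomes, a mean of 18.2% ± 3.58 (SD, n = 3) against 82.8% ± 7.69 in cells. The groups do not overlap (exact two-sided permutation p = 0.1, the smallest possible, adjusted p = 0.133). The miR-196a-5p share stayed low, at 5.66% ± 0.792 in exosomes and 8.82% ± 2.92 in cells, with overlap (exact two-sided permutation p = 0.2, adjusted p = 0.218).

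The supernatant left after exosome isolation differed from the exosomes in the miR-10 members. miR-10b-5p had 66.0, 67.7 and 77.8 CPM there, below every exosome library (exosomes 8.58-fold higher, log2 difference 3.03 ± 0.54, edgeR adjusted p = 0.000104). miR-10a-5p had 211, 373 and 182 CPM, above every exosome library (−1.04 ± 0.40 for exosomes minus supernatant, edgeR adjusted p = 0.0274). miR-196b-5p had 52.8, 67.7 and 13.0 CPM, below every exosome library (2.22 ± 0.52, edgeR adjusted p = 0.00103). Thus 2 of 3 members tested passed as higher in exosomes, beside 37.4% of 238 arms, and 1 as lower, beside 27.7%, and all 3 had groups without overlap, beside 66.8%. The miR-10a-5p call was lost without exosome replicate 1 or 2, or supernatant replicate 2 or 3 (edgeR adjusted p = 0.161, 0.104, 0.0943 and 0.0602).

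Against the cells, the supernatant was higher in miR-10a-5p (2.49 ± 0.41, edgeR adjusted p = 3.37e-05) and miR-10b-5p (2.72 ± 0.78, edgeR adjusted p = 0.00526). miR-196b-5p did not pass (−0.84 ± 0.56, edgeR adjusted p = 0.181), and its groups overlap. Thus 2 of 3 members tested passed as higher, beside 35.7% of 238 arms, and 2 had groups without overlap, beside 73.9%. These supernatant levels rest on 52 reads of miR-10a-5p, 15 of miR-10b-5p and 9 of miR-196b-5p, and the miR-10b-5p call was lost without supernatant replicate 3 (edgeR adjusted p = 0.0926), while without TUBO cells replicate 2 the log2 difference was 3.61. The miR-10a-5p share of both miR-10 members was 76.9% ± 7.34 (SD, n = 3) in supernatant, which overlaps the cells (exact two-sided permutation p = 0.3, adjusted p = 0.3). miR-196a-5p had 39.6, 33.9 and 25.9 CPM in supernatant, from 7 reads in all (3, 2 and 2 per library), and was not tested. These values lie above every TUBO cell and exosome library. They are at or below the floor of 3 reads in each supernatant library, which is 39.6, 50.8 and 38.9 CPM. The miR-196a-5p share of both miR-196 members was 47.6% ± 17.2 in supernatant, from 7, 6 and 3 reads of the pair per library, with no overlap with cells or exosomes (exact two-sided permutation p = 0.1, the smallest possible, adjusted p = 0.133).

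miRNAs of blood were, like miR-10b-5p, higher in the exosomes than in the cells. miR-451a, which is made in red blood cells, had 944, 1149 and 872 CPM in exosomes, 0 reads in all 3 TUBO cell libraries, and 2 reads in the supernatant. miR-486-5p, also abundant in red blood cells, had 9182, 10051 and 23861 CPM in exosomes, 149, 125 and 147 CPM in cells, and 3181, 2913 and 7110 CPM in supernatant (exosomes minus cells 6.90 ± 0.57, edgeR adjusted p = 5.83e-06). Exosome replicate 3 was the highest of its group in miR-486-5p and in miR-10b-5p, but not in miR-451a. miR-486-5p also averaged 1126 CPM in MM3MG and 722 CPM in MM3MG-Her2, where miR-451a had 0 reads. All 4 blood and serum miRNAs tested passed as higher in exosomes than in cells, beside 23.5% of 238 arms. Against supernatant 3 of the 4 did, beside 37.4%. The exception was miR-122-5p, at 32.7 CPM in exosomes and 75.8 CPM in supernatant (edgeR adjusted p = 0.0731). Of the 6 blood and serum miRNAs listed, 6 had reads in exosomes and 2 in TUBO cells, and their sum ran from 10295 to 24875 CPM in exosomes, 127 to 157 CPM in cells and 3048 to 7135 CPM in supernatant. The medium held calf serum, and a read of a conserved miRNA does not show which species it came from. The part of serum RNA in the miR-10b-5p level of the exosomes was not tested.

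**Figure D4:**
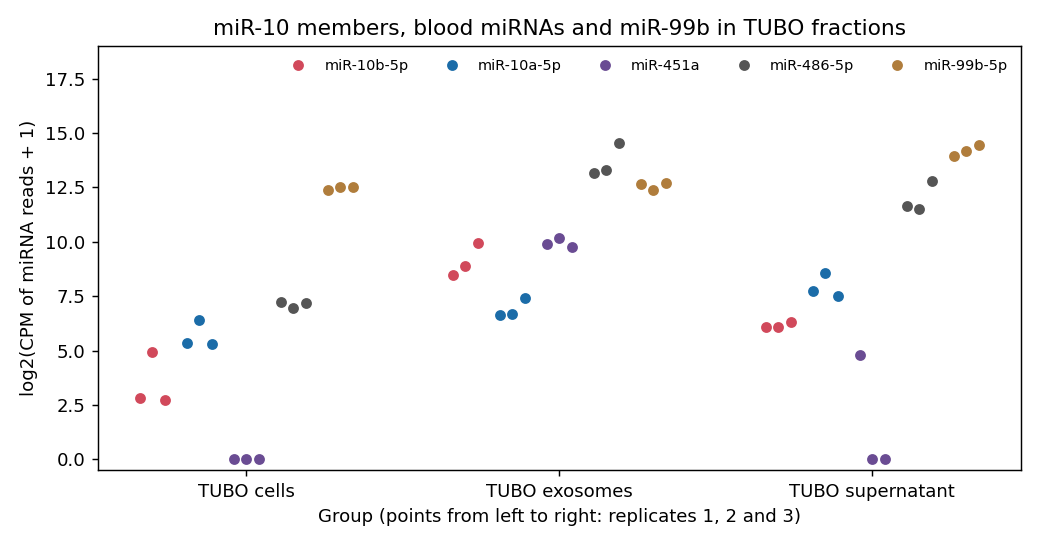
log2(CPM + 1) of miR-10b-5p, miR-10a-5p, the blood miRNAs miR-451a and miR-486-5p, and the relative miR-99b-5p in TUBO cells, exosomes and supernatant, 3 libraries each. miR-10b-5p, miR-451a and miR-486-5p are each higher in all 3 exosome libraries than in any cell library, and miR-451a is at 0 reads in the cells.

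Ordered by mean level, miR-10a-5p ran from MM3MG-Her2 (18937 ± 853 CPM; SD, n = 3 here and below) and MM3MG (18739 ± 3795), which overlap, down to supernatant (255 ± 103), exosomes (124 ± 41.7) and TUBO cells (54.5 ± 26.2). miR-10b-5p ran from MM3MG (7707 ± 2175) to exosomes (605 ± 344), MM3MG-Her2 (119 ± 20.3), supernatant (70.5 ± 6.39) and TUBO cells (13.8 ± 13.9), with no overlap between neighbours; exosomes were not tested against MM3MG-Her2, nor MM3MG-Her2 against supernatant. miR-196a-5p ran from MM3MG-Her2 (4001 ± 189) to MM3MG (2553 ± 489), supernatant (33.1 ± 6.86), exosomes (12.3 ± 1.13) and TUBO cells (8.24 ± 0.933). The last 3 rest on 7, 11 and 12 reads, and each supernatant value is at or below the 3-read floor of its library. Libraries of these 3 groups do not overlap, and the groups were not tested against each other. miR-196b-5p ran from MM3MG-Her2 (1249 ± 84.7) and MM3MG (1072 ± 122), which overlap, to exosomes (206 ± 12.1), TUBO cells (92.8 ± 33.8) and supernatant (44.5 ± 28.3), where cells and supernatant overlap.

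Many miR-10 reads did not begin at the annotated first base. Reads that start 1 base downstream carry a shifted seed, which for miR-10a-5p is CCCUGUA, shared by no mature miRNA in the RefSeq table. The shifted sequence is shown with its own bases 2 to 8 in capitals.
miR-10a-5p starting 1 base downstream: aCCCUGUAgauccgaauuugug
These reads were counted over the whole 5p arm and are not part of the levels above. They made up 30.6%, 30.2% and 33.5% of miR-10a-5p arm reads in MM3MG, and 32.5%, 33.0% and 31.1% in MM3MG-Her2. The share was thus near the same level in both lines, at 31.4% ± 1.80 and 32.2% ± 1.02 (SD, n = 3). In TUBO cells it was 32.5% ± 3.41 from 112 arm reads, and in exosomes 24.0% ± 9.21 from 146 arm reads.

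miR-10b-5p began 1 base downstream in fewer of its reads, at 15.7%, 17.4% and 18.1% in MM3MG and 17.8%, 14.8% and 13.5% in exosomes. In MM3MG-Her2 it was 9 of 88 arm reads. In each MM3MG library the miR-10b-5p share was below the miR-10a-5p share. Among 56 arms with at least 1000 reads in MM3MG, the median share of such starts was 1.28%, and miR-10a-5p and miR-10b-5p held ranks 3 and 5 from the highest. miR-196a-5p and miR-196b-5p held ranks 49 and 53, so nearly all of their reads kept the annotated seed.

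**Figure D5:**
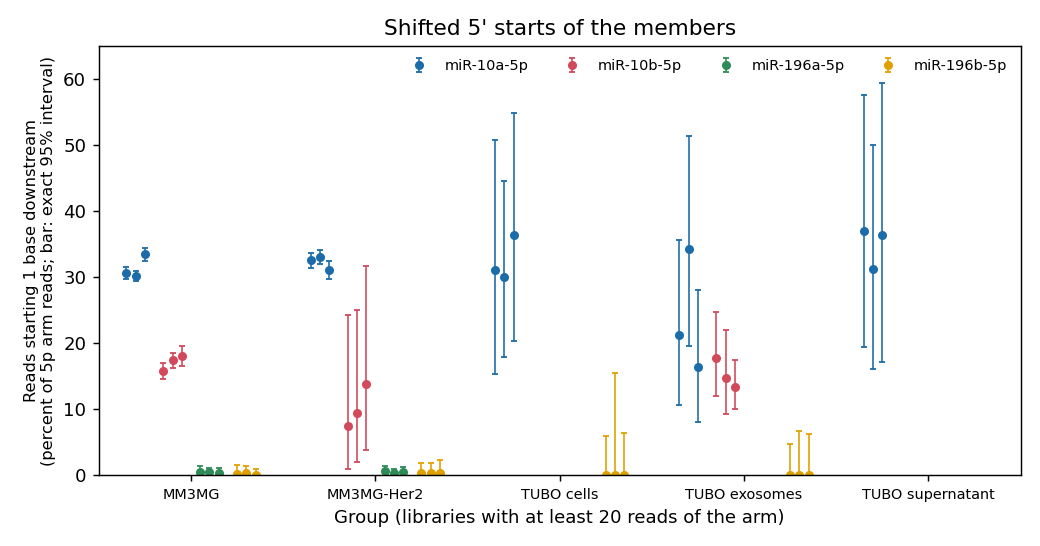
Percent of each member's 5p arm reads that start 1 base downstream of the annotated start, for libraries with at least 20 reads of the arm, with exact 95% binomial intervals. miR-10a-5p lies between 30.2% and 33.5% in the 6 MM3MG and MM3MG-Her2 libraries, and the miR-196 members lie near 0.

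The families also differed at the 3′ end. The annotated 23-base form of miR-10a-5p made up 16.7% of its reads, and the form 1 base shorter, uACCCUGUagauccgaauuugu, made up 68.7%. For miR-10b-5p the 22-base form held 73.2%. Among miR-196a-5p reads the annotated 22-base form held 38.2%, and 18.2% were 23 bases long with a uridine added that neither hairpin encodes, uAGGUAGUuucauguuguugggu. Among miR-196b-5p reads, 19.2% ended with that added uridine, uAGGUAGUuuccuguuguugggu, which its hairpin does not encode.

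Reads with added uridine made up 20.6% of miR-196a-5p and 23.2% of miR-196b-5p reads in MM3MG, ranks 8 and 6 of 56 arms, whose median was 3.49%. The miR-10 members were at 0.261% (miR-10a-5p) and 0.365% (miR-10b-5p), ranks 49 and 46. Added uridine was thus frequent on the miR-196 members and shifted starts on the miR-10 members. Any added bases were found on 30.7% ± 1.54 (SD, n = 3) of miR-196a-5p reads in MM3MG and 24.1% ± 2.38 in MM3MG-Her2, and on 33.0% ± 2.04 and 24.2% ± 0.989 of miR-196b-5p reads. Neither pair of groups overlaps, and in each the exact two-sided permutation p was 0.1, the smallest possible (adjusted p = 0.4 over 20 comparisons of 3′ ends).

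The hairpins of miR-196a-5p could be told apart by their next base. They share the 22 mature bases, after which Mir196a-1 has C and Mir196a-2 has A. Of 1268 longer miR-196a-5p reads in MM3MG, 443 matched Mir196a-2 to their last base, 15 matched Mir196a-1 and 810 matched neither. Reads that went on for 2 or more bases matched Mir196a-2 in 188 cases and Mir196a-1 in 0. In MM3MG-Her2 those numbers were 90 and 0. Of the opposite arms, miR-196a-2-3p had 95 reads in MM3MG and 77 in MM3MG-Her2, and miR-196a-1-3p had 0 reads in all 15 libraries. A count of 0 there does not show that Mir196a-1 was unused. In MM3MG miR-10b-3p also had 0 reads, beside 8762 reads of miR-10b-5p. A single A may also be an untemplated addition, which a match of 1 base does not separate.

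Of 7 other arms made in the Hox clusters, 4 could be tested in the cell lines. These were miR-10a-3p, miR-196a-2-3p, miR-615-3p and miR-615-5p, the last pair from a hairpin in an intron of Hoxc5 on chromosome 15. All 4 passed as lower in TUBO cells than in MM3MG and in MM3MG-Her2, beside 47.1% and 47.8% of all arms. miR-615-3p averaged 4.23 CPM in TUBO cells, beside 104 CPM in MM3MG and 120 CPM in the transduced line (−4.76 ± 0.41 against MM3MG, edgeR adjusted p = 1.36e-14). With 0 reads in TUBO cells and a floor of 3 reads over the group, miR-196a-2-3p was at least 39.3-fold, miR-10a-3p at least 12.2-fold and miR-615-5p at least 7.60-fold lower there than in MM3MG. Between the MM3MG lines, miR-615-5p rose, from 15.8 to 44.5 CPM in MM3MG-Her2 (1.29 ± 0.43, edgeR adjusted p = 0.00781), and the other 3 did not pass. The 5p arm dominated the miR-10 hairpins, with 671 reads of miR-10a-5p for each of miR-10a-3p in MM3MG, and miR-10b-3p had 0 reads in all 15 libraries. For miR-615 the 3p arm had more reads, 118 against 19 in MM3MG and 80 against 30 in MM3MG-Her2.

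The relatives of miR-10 outside the Hox clusters had smaller log2 differences between TUBO cells and either MM3MG line. miR-99a-5p, miR-99b-5p and miR-100-5p resemble miR-10 over the middle of the molecule but have another seed, as miR-100-5p shows, which shares a run of 11 bases with miR-10a-5p.
miR-100-5p: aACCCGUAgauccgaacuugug
miR-99b-5p averaged 5113 CPM in MM3MG and 7684 CPM in MM3MG-Her2. It had 5694 CPM in TUBO cells and 6169 CPM in their exosomes, and 18799 CPM in the supernatant. miR-100-5p lay between 499 and 996 CPM in all 5 group means. In TUBO cells against MM3MG, 1 of the 3 passed, as lower (miR-99a-5p, −1.03 ± 0.19, edgeR adjusted p = 5.31e-06), beside 47.1% of all arms. Against MM3MG-Her2 2 of the 3 passed as lower, beside 47.8%: miR-99a-5p (−1.17 ± 0.20, edgeR adjusted p = 1.22e-06) and miR-99b-5p (−0.53 ± 0.14, edgeR adjusted p = 0.00046). In exosomes against cells the log2 differences were −0.22 ± 0.31 for miR-99a-5p, 0.36 ± 0.20 for miR-99b-5p and 0.64 ± 0.26 for miR-100-5p (edgeR adjusted p = 0.586, 0.172 and 0.056). In supernatant against cells 2 of the 3 passed as higher, beside 35.7% of all arms: miR-99b-5p (2.01 ± 0.21, edgeR adjusted p = 1.21e-07) and miR-100-5p (1.05 ± 0.27, edgeR adjusted p = 0.00232).

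The arms whose pattern over the 15 libraries was most like each member's were found by Pearson correlation of log2(CPM + 1), among 235 arms with a mean of at least 100 CPM in some group. The libraries share their groups, so these values describe mostly differences between 5 group levels. For miR-10a-5p they were miR-196a-5p (0.991), miR-199a-3p, which cannot be told from miR-199b-3p (0.987), and miR-199a-5p (0.983). For miR-10b-5p they were miR-127-3p (0.985), miR-411-5p (0.960) and miR-379-5p (0.935), which lie in the imprinted Dlk1-Dio3 region of chromosome 12. For miR-196a-5p they were miR-10a-5p (0.991), miR-224-5p (0.986) and miR-676-5p (0.982), and for miR-196b-5p miR-582-3p (0.936), miR-34c-5p (0.920) and miR-221-3p (0.915). Members of the same family were less alike than that: 0.611 for miR-10a-5p with miR-10b-5p, and 0.840 for miR-196a-5p with miR-196b-5p. miR-127-3p went with miR-10b-5p in level as well, at 6841 CPM in MM3MG and 81.4 CPM in MM3MG-Her2, then 323 CPM in exosomes, 69.3 CPM in supernatant and 4.44 CPM in TUBO cells.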

How the data were processed

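The authors deposited counts: per the file contents, each library lists distinct insert sequences of small RNA with a whole number of reads. Total RNA came from TRIzol extraction, adapters were ligated to both ends, and miRNA-sized PCR products were cut from a gel, per the labels' protocols. The sources used here do not give the trimming tool or the authors' annotation. Inserts of 18 to 26 bases were matched by their first 18 bases to RefSeq mature miRNAs (GRCm38.p6) and to 1174 named GENCODE M21 hairpins; no insert had an uncalled base there. Arms sharing at least 50% of their reads were merged (40 features). CPM is over miRNA reads. No molecular identifiers are named, so reads are not independent molecules, and intervals and floors (3 reads) cover counting error only.

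Counts were tested with edgeR 4.0.16 in R 4.3.3 (TMM, filterByExpr, robust quasi-likelihood fit, Benjamini-Hochberg adjustment over all arms, threshold 0.05), with 9 cell-line libraries in 1 fit and 9 TUBO-derived libraries in another. Folds are ratios of mean CPM, whereas log2 differences carry the TMM scaling, so a fold and its log2 difference need not match. Scripts were tested on simulated data. DESeq2 1.42.0, other scalings, filters, match rules and left-out libraries were alternatives. Shares and 3′ ends were compared by exact permutation, 3′ ends in groups with at least 20 reads per library and shares in all groups. Exact binomial intervals came from scipy 1.17.1. The members, lists and the rule for named miRNAs (the members, other Hox cluster arms, miR-99/100 relatives and the 3 arms most alike) were chosen with earlier results of these data known.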

Additional observations from a re-analysis of the deposited data

How the results depend on the processing

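Of 210 log2 differences of members under other scalings, filters, match rules, tools and fits, 201 kept their direction and their side of the threshold. So did 104 of 126 with 1 library left out. The 210 include those of the match rule that takes uncalled bases as matching. That rule could change no value, since no insert had an uncalled base in its first 18 bases. It was the only other match rule run on the 12 shares, so it does not test them. All 72 shares with 1 library left out kept their direction. In MM3MG-Her2 against MM3MG, the miR-10a-5p log2 difference was 0.00303 with upper-quartile scaling, 0.0155 with library size alone and −0.53 (passing) with no low-count filter; miR-196a-5p was 0.0758 with no filter and 0.11 with all 15 libraries in 1 fit, neither passing, and miR-196b-5p was −0.33 and −0.31 under those settings. With no filter, miR-196b-5p in supernatant against cells was −1.32 (passing) and miR-10a-5p in exosomes against supernatant −0.66 (not passing). The cause was not tested.

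With each library left out in turn, MM3MG-Her2 against MM3MG ranged from −0.64 to −0.19 for miR-10a-5p, −0.0765 to 0.46 for miR-196a-5p and −0.38 to 0.0428 for miR-196b-5p. Exosomes against cells ranged from 1.14 to 1.61 for miR-10a-5p and 0.83 to 1.51 for miR-196b-5p, supernatant against cells from 2.27 to 3.61 for miR-10b-5p and −1.30 to −0.60 for miR-196b-5p, and exosomes against supernatant from −1.26 to −0.77 for miR-10a-5p. Mean length of miR-10a-5p ranged from −0.17 to 0.0138 bases (TUBO cells minus MM3MG) and −0.0698 to 0.117 (exosomes minus cells), and of miR-196b-5p from −0.0629 to 0.0597 (TUBO cells minus MM3MG-Her2). The percentage of reads with added bases ranged from −2.33 to 0.17 (TUBO cells minus MM3MG) and −1.71 to 0.79 (exosomes minus cells) for miR-10a-5p, and from −1.15 to 5.10 (MM3MG-Her2 minus MM3MG) for miR-10b-5p.

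Deviations of libraries with the same replicate number had correlations from −0.196 to 0.124, and no comparison had all pairs over 0.1. In exosomes against supernatant they ran from 0.0104 to 0.124, beside a mean of −0.0361 for different numbers. Replicate 3 was the highest in miR-486-5p in both of these groups. Differences between replicates were measured by chi-square per degree of freedom, which grows as they exceed counting error. In exosomes replicate 3 gave 89.1 and 86.7 against replicates 1 and 2, which gave 15.1 between them. In supernatant these values were 39.8, 36.8 and 5.31. In MM3MG replicate 1 stood apart, at 41.3 and 43.0, with 14.5 between replicates 2 and 3. Neither these values nor the low correlations settle whether libraries were paired. The fit with the replicate block changed no call of a member: for miR-10b-5p it gave −6.17 in MM3MG-Her2 against MM3MG and 5.70 in exosomes against cells. miR-196a-5p has 7 to 12 reads per TUBO-derived group, and did not pass the low-count filter, so it was not tested there.
With RLE scaling the median log2 difference of all arms tested moved from 0.0718 to −0.18 in exosomes against cells. In supernatant against cells it moved from −0.0671 to −0.34. With library size alone it moved from −0.33 to −0.0822 (TUBO cells against MM3MG) and from −0.49 to −0.39 (TUBO cells against MM3MG-Her2). No call of a member in these 4 comparisons changed with those scalings. In MM3MG-Her2 against MM3MG, where calls did change under other settings, this median was −0.0435 in the main fit. It was −0.26 with no low-count filter and −0.35 with all 15 libraries in 1 fit. Without MM3MG replicate 1, 2 or 3 it was −0.53, −0.45 and −0.44. The part of these shifts in the changed calls was not tested.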
